A study of Macaca fascicularis with 56 samples.

Results

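The genes followed here encode proteins with which white blood cells and platelets start, brake and dissolve a clot. Tissue factor (F3) starts coagulation, tissue factor pathway inhibitor (TFPI) and thrombomodulin (THBD) restrain it, factor V (F5) and the A chain of factor XIII (F13A1) build and crosslink the clot, and thrombospondin 1 (THBS1) is released by activated platelets and made by monocytes. Urokinase (PLAU) and its receptor (PLAUR) turn plasminogen into plasmin on the cell surface, and SERPINB2 inhibits urokinase. Of these 9 listed genes, 8 had a probe set whose only gene symbol was their own. Where a gene had several, the one with the highest mean log2 intensity over all 56 arrays was used. The 8 genes were among 16020 genes tested in all. SERPINB2 was named by no probe set as its only gene and is not analysed here.

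Whole blood of 14 cynomolgus macaques (Macaca fascicularis) was read on human genome arrays at 0, 2, 4 and 8 h, with the same animals at every hour. The LR12 arm held 6 animals (Y31309 to Y31314), the peptide control arm, given LR12 in scrambled order, 4 animals (Y31305 to Y31308), and the vehicle arm 4 animals (Y31301 to Y31304). The LR12 peptide is taken from TREM-like transcript 1 and acts as a decoy for the ligands of TREM-1, a receptor which amplifies inflammatory signalling in neutrophils and monocytes. The title of the series places an endotoxin challenge before the LR12 or scrambled peptide. Whether vehicle animals were given endotoxin, when in the protocol hour 0 fell, and the doses, ages and sexes are not in the labels. All levels below are log2 intensities of 1 array per animal and hour, values of the control arms follow the order of the animals' numbers, and a level is set only against other levels of the same gene, since each probe set has its own response.

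In inflamed blood, monocytes can expose tissue factor and so link infection to coagulation, while thrombomodulin turns thrombin towards the anticoagulant protein C pathway. Clots are removed by plasmin, and the urokinase receptor holds urokinase at the surface of neutrophils and monocytes. The receptor also serves these cells in adhesion and migration.

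The blood arrays carried their cell types' markers. Of the neutrophil markers 14 of 16 tested lay above the array median on all 56 arrays, of the monocyte markers 12 of 13, of the T cell markers 11 of 15 and of the platelet markers 9 of 13. Of the endothelial markers, which stand for a tissue that also makes TFPI, THBD and F3, 2 of 9 did so, TIE1 and ERG. Every array had been scaled to the same mean, but the array medians were lower at the later hours (mean 15.5 at 4 h and 15.9 at 8 h on the linear scale, against 18.4 at 0 h, 14 arrays each). Relative to 0 h, the middle of all genes' log2 changes lay between -0.29 and -0.18 for LR12 animals and between -0.26 and 0.03 for the control arms. The array control probe sets split the arrays into 24 with a high and 32 with a low level. In whole blood, fewer cells of a type and less RNA per cell cannot be told apart.

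In the LR12 arm, 3 of the 8 genes rose at 2 h (PLAUR, PLAU and THBD), 3 at 4 h (THBD, THBS1 and PLAU) and 4 at 8 h (THBD, THBS1, PLAUR and PLAU), and none fell. A gene was called at a limma p-value, adjusted by Benjamini-Hochberg over all 16020 genes, below 0.05. Of all genes, 32%, 36.8% and 29.1% were called at 2, 4 and 8 h, of which the rises made 10.1%, 10.8% and 8.65% of all genes. The median change of the 8 genes was 0.81, 0.15 and 0.83, beside the medians over all genes of -0.18, -0.29 and -0.27. For peptide control animals, 0, 1 (THBS1) and 0 of 8 were called at 2, 4 and 8 h, where 3.3%, 4.84% and 0.73% of all genes were, and the median changes of the 8 genes were 0.22, 0.28 and 0.62. At 2 and 8 h in that arm, 1 and 2 of the 8 had an unadjusted p under 0.05, beside 2356 and 2200 of all genes, and the animal as a random block called 0 of 8 at both, while each animal's own level called F13A1 and THBS1 at 8 h. For vehicle animals limma called 0 of 8 at each hour, with or without the animal as a random block (each animal's own level called THBD at 4 h), where 0%, 0.0125% and 0.0375% of all genes were called. There, 3, 2 and 2 of the 8 had an unadjusted p under 0.05, beside 1008, 1502 and 998 of all genes. The arms differ in size, and a count in the arm of 6 animals cannot be set against one in an arm of 4 as a difference in response.

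Between neighbouring hours, 2 of 8 (PLAUR and TFPI) were lower at 4 than at 2 h in the LR12 arm and 1 (PLAUR) was higher at 8 than at 4 h, where 11.5% and 5.67% of all genes were called. In the peptide control arm 2 of 8 (THBS1 up, PLAUR down) were called at 4 against 2 h and 0 at 8 against 4 h, beside 4.9% and 0.112% of all genes. Between hours of the vehicle arm, limma called 0 of 8 in both steps, beside 0% of all genes, and none of the 8 had an unadjusted p under 0.05.

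PLAUR, the urokinase receptor gene, had the largest change of the 8 genes in the LR12 arm. In the LR12 arm its lowest, median and highest levels were 6.99, 7.67 and 8.90 at 0 h, 10.41, 11.38 and 12.17 at 2 h, 6.86, 7.88 and 8.79 at 4 h, then 9.05, 9.36 and 9.83 at 8 h. The 2 h values of all 6 animals lay above every value at the other hours, so the gene peaked at 2 h, overlapped its 0 h range at 4 h and stood above that range again at 8 h. The peptide control animals, Y31305 to Y31308 in order, had 8.76, 8.03, 8.99 and 9.46 at 0 h, 8.59, 10.49, 11.25 and 9.63 at 2 h, 9.04, 7.39, 8.43 and 7.93 at 4 h, then 9.72, 8.64, 9.76 and 8.35 at 8 h. Here 3 of 4 animals were highest at 2 h and Y31305 was not. The vehicle animals, Y31301 to Y31304 in order, had 7.85, 6.07, 9.36 and 8.49 at 0 h, 9.59, 9.22, 10.32 and 9.22 at 2 h, 8.35, 9.31, 8.69 and 8.73 at 4 h, then 8.54, 7.43, 9.46 and 8.34 at 8 h. The vehicle animals also had their highest level at 2 h in 3 of 4, with Y31302 slightly higher at 4 h.

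The rise of PLAUR at 2 h in the LR12 arm was 3.56 ± 0.42 on the log2 scale (SE, limma adjusted p = 6.93e-09), or 11.8-fold, in 6 of 6 animals. Its return between 2 and 4 h was as large (-3.53 ± 0.42, adjusted p = 4.05e-08, down in 6 of 6). The level at 4 h differed from that at 0 h by 0.03 ± 0.42 (adjusted p = 0.964, 95% interval -0.80 to 0.87). From 4 to 8 h PLAUR rose again, by 1.58 ± 0.42 (adjusted p = 0.0131, 6 of 6), and at 8 h it was 1.61 ± 0.42 above 0 h (adjusted p = 0.00265). The second rise was not called without Y31310 (adjusted p = 0.0524), without Y31311 (0.0636), on the low-control arrays alone (0.93, adjusted p = 0.432) or with the second PLAUR probe set (0.78, adjusted p = 0.223). The peptide control 2 h change was 1.18 ± 0.51 (adjusted p = 0.232, up in 3 of 4), and the fall between 2 and 4 h was called (-1.79 ± 0.51, adjusted p = 0.0311, down in 3 of 4). That call was lost without Y31306 (adjusted p = 0.246), Y31307 (0.22) or Y31308 (0.144). It was also lost when the peptide control arm was fitted alone, without the spread of the other arms. The vehicle 2 h change was 1.64 ± 0.51 in 4 of 4 animals and was not called (adjusted p = 0.534).

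PLAU, the gene of urokinase itself, rose with its receptor but did not fall back. Its lowest, median and highest levels in the LR12 arm were 4.08, 5.48 and 6.05 at 0 h, 6.83, 7.09 and 7.50 at 2 h, 6.26, 7.07 and 7.81 at 4 h, then 6.39, 6.58 and 6.78 at 8 h. No later value reached down to the 0 h values, and each of the 6 animals was lowest at 0 h. The rises were 1.86 ± 0.34 at 2 h (adjusted p = 2.34e-05), 1.82 ± 0.34 at 4 h (2.66e-05) and 1.27 ± 0.34 at 8 h (0.00348). Peptide control animals had 5.09, 5.43, 5.92 and 5.76 at 0 h, 5.03, 6.31, 7.02 and 6.30 at 2 h, 5.80, 6.62, 4.54 and 6.66 at 4 h, then 5.30, 6.36, 6.62 and 6.64 at 8 h. The changes there, between 0.35 and 0.68, were not called (adjusted p from 0.487 to 0.639), and Y31307 dropped to its lowest level at 4 h. Vehicle animals had 5.04, 4.27, 5.30 and 5.94 at 0 h, 5.97, 6.09, 7.02 and 6.59 at 2 h, 6.36, 6.87, 6.38 and 6.22 at 4 h, then 5.62, 5.60, 7.19 and 6.11 at 8 h. All 4 vehicle animals were lowest at 0 h and their 2 and 4 h values did not overlap those at 0 h, although the changes of 1.28 ± 0.41 and 1.32 ± 0.41 were not called (adjusted p = 0.534 and 0.272).

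**Figure D1:**
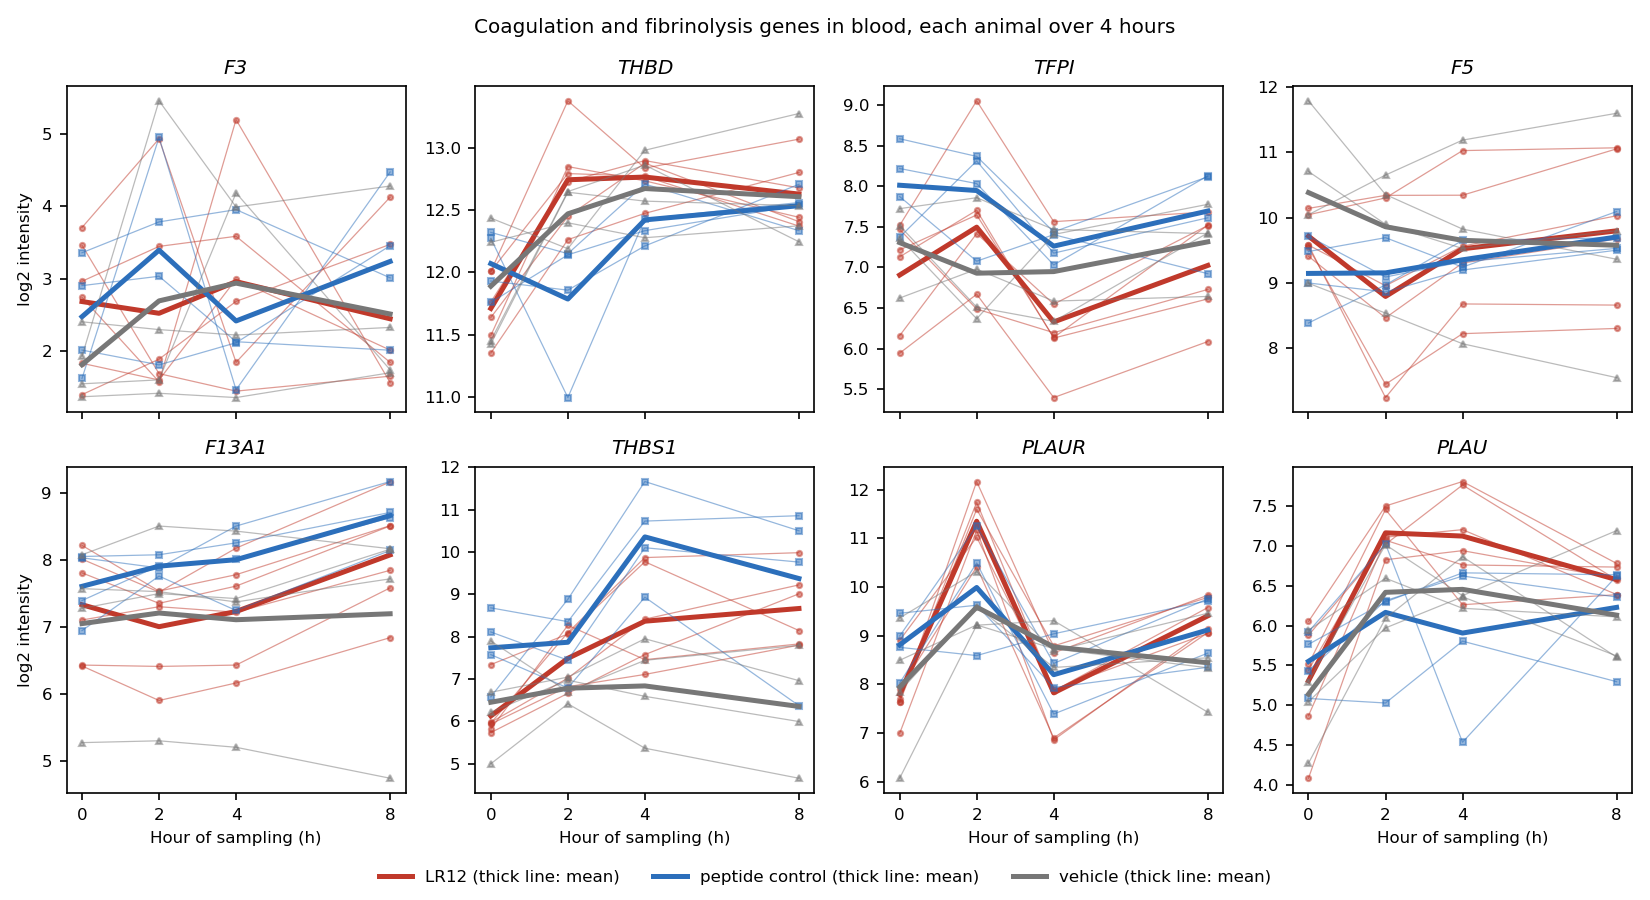
Log2 intensity (y axis) against hour of sampling (x axis) for the 8 genes, with thin lines for animals and thick lines for the mean of the LR12 (red circles, n = 6), peptide control (blue squares, n = 4) and vehicle (grey triangles, n = 4) arms. PLAUR peaked at 2 h, at a median of 11.38 in the LR12 arm, PLAU and THBD stayed above their 0 h levels in that arm, and the F13A1 lines of the animals run side by side.

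THBD, the thrombomodulin gene, rose by 2 h in the LR12 arm and stayed there. Its lowest, median and highest levels were 11.35, 11.70 and 12.01 at 0 h, 12.26, 12.76 and 13.38 at 2 h, 12.47, 12.80 and 12.90 at 4 h, then 12.37, 12.56 and 13.07 at 8 h. The 0 h values overlapped with none of the later groups, and all 6 animals were lowest at 0 h. The rises were 1.03 ± 0.19 at 2 h (adjusted p = 1.99e-05), 1.05 ± 0.19 at 4 h (1.17e-05) and 0.92 ± 0.19 at 8 h (0.000194). Peptide control animals had THBD levels of 11.76, 11.93, 12.27 and 12.32 at 0 h, 12.14, 11.86, 10.99 and 12.15 at 2 h, 12.33, 12.21, 12.43 and 12.71 at 4 h, then 12.54, 12.71, 12.56 and 12.33 at 8 h. There 3 of 4 animals were lowest at 2 h, with a change of -0.28 ± 0.23 (adjusted p = 0.639), and the step between 2 and 4 h of 0.64 ± 0.23 was called with the animal as a random block (adjusted p = 0.0333, 12.4% of all genes called) and not without it (0.0884). Vehicle animals had THBD levels of 11.42, 11.45, 12.43 and 12.24 at 0 h, 12.64, 12.65, 12.19 and 12.40 at 2 h, 12.57, 12.86, 12.98 and 12.28 at 4 h, then 12.53, 12.24, 13.27 and 12.37 at 8 h. At 0 h, Y31301 and Y31302 lay below the other 2 vehicle animals. The vehicle changes were 0.58, 0.78 and 0.72 ± 0.23, none of them called (adjusted p = 0.635, 0.205 and 0.426). With each animal given its own level, an alternative added after seeing the data, the 4 h change was called (adjusted p = 0.049, 1.11% of all genes called).

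TFPI, which inhibits the tissue factor complex, had its lowest group mean at 4 h in the LR12 and peptide control arms (6.33 and 7.26). In the vehicle arm the mean was 6.93 at 2 h and 6.95 at 4 h. At 4 h, 4 of 6 LR12, 3 of 4 peptide control and 2 of 4 vehicle animals were at their lowest. In the LR12 arm its lowest, median and highest levels were 5.94, 7.17 and 7.52 at 0 h, 6.49, 7.53 and 9.05 at 2 h, 5.40, 6.17 and 7.56 at 4 h, then 6.09, 7.12 and 7.68 at 8 h. Each of the 6 animals was lower at 4 than at 2 h, although the groups overlapped. The step was -1.17 ± 0.36 (adjusted p = 0.022), and no change against 0 h was called. Arrays centred on their median gave -0.96 (adjusted p = 0.0626), and the second TFPI probe set gave -0.37 (0.485). The step was not called without Y31309 (0.0665) or Y31314 (0.0727) either. Levels in the peptide control animals were 7.87, 8.22, 7.37 and 8.59 at 0 h, 7.08, 8.03, 8.31 and 8.37 at 2 h, 7.40, 7.03, 7.18 and 7.44 at 4 h, then 6.92, 8.13, 7.61 and 8.12 at 8 h. At 4 h all 4 were below their 0 h level, but the change of -0.75 ± 0.44 was not called (adjusted p = 0.294). Levels in the vehicle animals ran from 6.34 to 7.86 over all hours, with no change called. TFPI levels followed the array control level (r = 0.535 between deviations from the group means over 56 arrays, a description with no test), and the part of that level in the step was not tested.

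F3, the tissue factor gene, gave little signal. Its probe set was above the array median on 10 of 56 arrays. The group means lay between 1.81 and 3.39, near the 20th percentile of the arrays, which averaged between 1.60 and 2.25 in the 12 groups. Its lowest, median and highest levels in LR12 animals were 1.39, 2.85 and 3.71 at 0 h, 1.57, 1.78 and 4.93 at 2 h, 1.44, 2.84 and 5.20 at 4 h, then 1.56, 1.93 and 4.13 at 8 h. These ranges overlapped at every hour. No comparison of F3 was called, and a change of tissue factor RNA was not detectable with this probe set.

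F13A1, the factor XIII A chain made by platelets and monocytes, differed more between animals than between hours. The arrays of a group varied with a pooled SD of 0.93 around the group mean, and of 0.25 once each animal was given its own level, the largest such narrowing among the 8 genes. Its lowest, median and highest levels in the LR12 arm were 6.42, 7.46 and 8.22 at 0 h, 5.90, 7.33 and 7.54 at 2 h, 6.16, 7.41 and 8.18 at 4 h, then 6.84, 8.18 and 9.17 at 8 h. The groups overlapped, yet all 6 animals were highest at 8 h. F13A1 levels in the peptide control animals were 7.39, 8.05, 6.95 and 8.03 at 0 h, 7.91, 8.08, 7.76 and 7.88 at 2 h, 8.01, 8.26, 7.25 and 8.51 at 4 h, then 8.63, 8.71, 8.14 and 9.17 at 8 h. Again 4 of 4 were highest at 8 h. Those in the vehicle animals were 8.08, 7.57, 7.28 and 5.27 at 0 h, 8.51, 7.53, 7.50 and 5.30 at 2 h, 8.43, 7.37, 7.42 and 5.20 at 4 h, then 8.17, 7.72, 8.16 and 4.74 at 8 h. Y31304 was far below the other 3 at every hour.

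Without regard to the animal, the 8 h changes of F13A1, 0.74 ± 0.51 in the LR12 arm and 1.06 ± 0.63 in the peptide control arm, were not called (adjusted p = 0.292 and 0.469), nor were they with a correlation shared by all genes as the block (0.101 and 0.164). With each animal given its own level, F13A1 rose by 0.74 ± 0.16 in the LR12 arm (adjusted p = 0.000212, 6 of 6) and by 1.06 ± 0.19 in the peptide control arm (0.000645, 4 of 4). In that fit 37.2% and 6.24% of all genes were called in these comparisons. The step between 4 and 8 h in the LR12 arm was called as well (0.85 ± 0.16, adjusted p = 0.000173, 12.5% of all genes called). The vehicle 8 h change was 0.15 ± 0.19 (adjusted p = 0.868). The 8 h changes of the LR12 and vehicle arms differed by 0.60 ± 0.25, which was not called (adjusted p = 0.145). The monocyte markers, the markers of a cell type that makes factor XIII A, were set beside it. In the LR12 arm 6 of 13 rose and 3 fell at 4 h, and 7 rose and 1 fell at 8 h. Of all genes, 36.8% and 29.1% were called. The median changes of the markers were 0.76 and 0.67, and their mean log2 level at 4 h lay between 9.66 and 10.24. In the peptide control arm at 8 h, 0 of 13 were called, beside 0.73% of all genes, with a median change of 0.42. The mean log2 level of 13 such genes lay between 10.35 and 10.60 in the LR12 animals at 8 h, against 9.02 to 9.96 at 0 h, and between 10.24 and 10.67 in the peptide control animals at 8 h, against 9.74 to 10.22 at 0 h. For vehicle animals it lay between 9.77 and 10.46 at 8 h, against 9.49 to 10.07 at 0 h. Its part in the F13A1 result was not tested.

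F5, the factor V gene, also kept animal levels apart, with a pooled SD of 0.99 around the group means and 0.56 within animals. LR12 animals had 9.41, 9.58 and 10.14 as lowest, median and highest level at 0 h, 7.24, 8.71 and 10.34 at 2 h, 8.22, 9.43 and 11.03 at 4 h, then 8.30, 9.85 and 11.07 at 8 h. The animals spread out after 0 h: Y31311 and Y31312 were more than 2 units below their 0 h level at 2 h, while Y31310 and Y31313 were above it. The mean change at 2 h was -0.92 ± 0.55 (adjusted p = 0.213), called only with each animal given its own level (-0.92 ± 0.30, adjusted p = 0.0107, down in 4 of 6, 38.5% of all genes called). The second F5 probe set, above the array median on all 56 arrays, changed by 0.10 on average at 2 h in the LR12 arm. It did not show the fall. With the chosen probe set, no other comparison of F5 was called in these fits. The vehicle animals ranged from 7.55 in Y31304 to 11.60 in Y31303 at 8 h.

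THBS1, the thrombospondin 1 gene, climbed more slowly than PLAUR and PLAU. LR12 animals had 5.74, 5.95 and 7.34 as lowest, median and highest level at 0 h, 6.66, 7.54 and 8.27 at 2 h, 7.11, 8.00 and 9.87 at 4 h, then 7.80, 8.58 and 9.98 at 8 h. Every animal was lowest at 0 h, and the 8 h values lay above all 0 h values. The rises were 2.24 ± 0.60 at 4 h (adjusted p = 0.00229) and 2.54 ± 0.60 at 8 h (0.00112), both in 6 of 6 animals. At 2 h the change of 1.36 ± 0.60 (adjusted p = 0.076) was called with the animal as a random block (0.0235, 37.8% of all genes called). THBS1 levels in the peptide control animals were 7.58, 8.68, 6.58 and 8.11 at 0 h, 6.79, 8.36, 8.88 and 7.45 at 2 h, 8.93, 10.73, 11.66 and 10.10 at 4 h, then 6.37, 10.86, 10.50 and 9.76 at 8 h. The 4 h values lay above all 0 h values, a rise of 2.62 ± 0.73 (adjusted p = 0.0304), and above those at 2 h in each animal (2.49 ± 0.73, adjusted p = 0.0363). Y31305 was back at its lowest level at 8 h while the other 3 stayed high, and the 8 h change of 1.63 ± 0.73 was not called (adjusted p = 0.299), though it was with each animal given its own level (0.0457). Those in the vehicle animals were 6.22, 5.0, 6.69 and 7.90 at 0 h, 6.97, 6.42, 7.05 and 6.70 at 2 h, 6.59, 5.37, 7.95 and 7.44 at 4 h, then 6.00, 4.66, 6.96 and 7.80 at 8 h. No direction was shared by the 4 vehicle animals at any hour.

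The THBS1 values moved with the array controls more than those of any other of the 8 genes. Within groups the level rose by 1.12 log2 units per unit of control level (r = 0.801 over 56 arrays, a description). The peptide control arm had 3, 1, 4 and 3 high-control arrays of 4 at 0, 2, 4 and 8 h, the LR12 arm 1, 1, 2 and 3 of 6 and the vehicle arm 2, 0, 2 and 2 of 4. With the control level as a covariate, the THBS1 step between 2 and 4 h in the peptide control arm was 1.39 and no longer called (adjusted p = 0.0871), while 6 other THBS1 comparisons became called. These were 1.04 for LR12 at 2 h against 0 h (0.0207), 1.25 for LR12 at 4 h against 2 h (0.0116), 2.21 for peptide control at 8 h against 0 h (0.00316), 2.04 for LR12 against vehicle at 4 h (0.00035), and 2.83 and 2.98 for peptide control against vehicle at 4 and 8 h (0.00111 and 0.00022). With the covariate, 5361 of all 16020 genes were called for LR12 at 2 h against 0 h (5125 without it). For peptide control at 8 h against 0 h, 822 were called (117 without it). The counts of all genes for the other gained comparisons are not given here. The THBS1 rise at 4 h against 0 h in the peptide control arm stayed called with the covariate, beside 1733 of all genes (776 without it). It was lost without Y31306 (adjusted p = 0.205), Y31307 (0.337) or Y31308 (0.104) and with the second THBS1 probe set (1.02, adjusted p = 0.244). It was also lost when the peptide control arm was fitted alone, without the spread of the other arms. The THBS1 step between 2 and 4 h in that arm was lost in that fit too, and without Y31307. The LR12 rise at 8 h was 2.06 on high-control arrays alone (adjusted p = 0.138) and remained called under all other alternatives run.

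Platelets carry both THBS1 and F13A1 RNA, and their marker genes were followed on the same arrays. Of 13 platelet markers tested in the LR12 arm, 1 rose and 0 fell at 2 h, 0 rose and 5 fell at 4 h, and 0 rose and 6 fell at 8 h. Of all genes, 32%, 36.8% and 29.1% were called. The median changes of the 13 were -0.04, -0.88 and -1.08, beside -0.18, -0.29 and -0.27 for all genes. The mean log2 level of these markers ran from 7.38 to 8.35 in LR12 animals at 0 h, 7.47 to 8.39 at 2 h, 6.42 to 7.45 at 4 h, and 6.72 to 7.42 at 8 h. The list lay between 7.28 and 7.65 at 4 h, against 7.41 to 8.55 at 0 h, in peptide control animals, where THBS1 rose. None of the 13 was called there in either direction at 4 h, beside 4.84% of all genes. Their median change was -0.07, beside -0.26 for all genes. PF4 and PPBP, genes of platelet chemokines, were above the array median on all 56 arrays. Higher THBS1 levels stood beside lower platelet marker levels in the LR12 arm at 4 and 8 h. The part of platelets in the THBS1 and F13A1 levels was not tested.

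**Figure D2:**
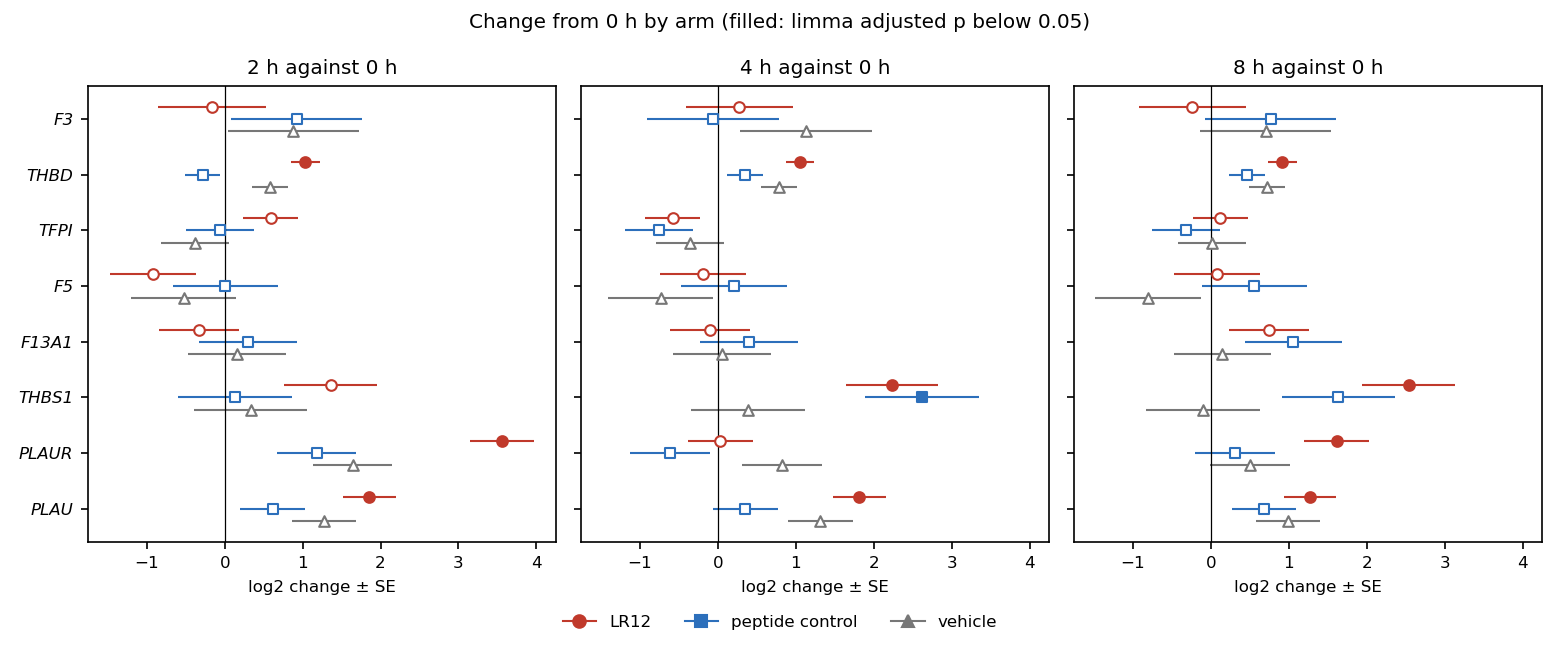
Log2 change from 0 h with its SE from limma (x axis) for each gene (y axis) at 2, 4 and 8 h (left to right panels) in the LR12 (red circles, n = 6), peptide control (blue squares, n = 4) and vehicle (grey triangles, n = 4) arms, filled at an adjusted p below 0.05. The largest change is that of PLAUR at 2 h in the LR12 arm (3.56), and no vehicle change is filled.

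The arms were compared at each hour to ask whether the LR12 animals differed from the animals given scrambled peptide or vehicle. At 0 h limma called 0 of 8 genes between the LR12 and peptide control arms, beside 0% of all genes. The unadjusted p was under 0.05 for 3 of the 8 (TFPI, THBS1 and PLAUR) and for 762 of all genes, and the random animal block called 0 of 8. The 0 h levels of those 3 were lower in the LR12 arm by 1.11, 1.61 and 1.02 log2 units, and each had an adjusted p of 1. TFPI and THBS1 followed the array control level within groups (r = 0.535 and 0.801). At 0 h, 1 of 6 LR12 arrays and 3 of 4 peptide control arrays were high-control. The part of that level in the 0 h differences was not tested. At 2 h, 1 of 8 was called, THBD, beside 2.95% of all genes. THBD had 12.26, 12.76 and 13.38 as its lowest, median and highest level in LR12 animals at 2 h, against 12.14, 11.86, 10.99 and 12.15 in peptide control animals, with no overlap and a difference of 0.96 ± 0.21 (adjusted p = 0.00862). Peptide control animal Y31307 was well below the other 3. Without it the difference was 0.69 (adjusted p = 0.0929), and with the second THBD probe set it was 0.62 (adjusted p = 0.208).

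At 4 and 8 h limma called 0 of 8 between the LR12 and peptide control arms, beside 1.35% and 0.0187% of all genes. Here 3 and 0 of the 8 had an unadjusted p under 0.05, beside 2562 and 1673 of all genes, and the random animal block called 0 of 8 at both hours. At 4 h PLAU was 1.22 ± 0.38 higher in LR12 animals (adjusted p = 0.0806) and THBS1 1.99 ± 0.67 lower (adjusted p = 0.11). At that hour 2 of 6 LR12 arrays and 4 of 4 peptide control arrays were high-control. The part of the control level in the THBS1 difference was not tested.

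Between the LR12 and vehicle arms, 0, 1, 0 and 1 of 8 genes were called at 0, 2, 4 and 8 h, beside 0.0187%, 15.9%, 11.9% and 2.72% of all genes. At 2 h the called gene was PLAUR, with 10.41, 11.38 and 12.17 as its lowest, median and highest level in LR12 animals, against 9.59, 9.22, 10.32 and 9.22 in vehicle animals. The groups did not overlap and differed by 1.77 ± 0.46 (adjusted p = 0.00654). At 8 h it was THBS1, with 7.80, 8.58 and 9.98 in LR12 animals, against 6.00, 4.66, 6.96 and 7.80 in vehicle animals. The difference was 2.31 ± 0.67 (adjusted p = 0.0448). The THBS1 call was lost without vehicle animal Y31301 (adjusted p = 0.202) or Y31302 (0.284), and without any of Y31310 to Y31313 in the LR12 arm (0.0547 to 0.105). It was also lost with arrays centred on their median (0.0543), with a value of 16 added before the log (0.0527), without the filter on dim probe sets (0.0553) and without trend and robust moderation (0.0559), and on high-control arrays alone (0.328). At 0 and 4 h, 0 and 2 of the 8 had an unadjusted p under 0.05, beside 709 and 4321 of all genes, and the random animal block called 0 of 8.

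Between the peptide control and vehicle arms limma called 0 of 8 at each of the 4 hours, beside 0%, 0%, 0.00624% and 0% of all genes. The unadjusted p was under 0.05 for 0, 2, 1 and 2 of the 8, beside 433, 1339, 1811 and 1153 of all genes. With the animal as a random block 1 of 8 was called, THBS1 at 4 h, beside 0.025% of all genes. Its 4 peptide control values of 8.93, 10.73, 11.66 and 10.10 lay above the 4 vehicle values of 6.59, 5.37, 7.95 and 7.44, a difference of 3.52 ± 0.73 (adjusted p = 0.106, and 0.034 with the block).

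The changes from 0 h were then compared between arms, which takes each arm's own starting level into account. Without a block limma called 0 of 8 genes in each of these comparisons. Of all genes, 0%, 0% and 0% were called for LR12 against peptide control at 2, 4 and 8 h, 2.17%, 0.218% and 0% for LR12 against vehicle, and 0%, 0% and 0% for peptide control against vehicle. The unadjusted p was under 0.05 for 3, 2 and 0 of the 8 in the first (1900, 1142 and 885 of all genes), for 1, 0 and 1 in the second (3035, 2710 and 2176) and for 1, 1 and 0 in the third (555, 649 and 453).

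With the animal as a random block, 3 of these 2 h differences were called. The change of THBD was 1.03 in LR12 animals and -0.28 in peptide control animals, a difference of 1.32 ± 0.29 (adjusted p = 0.00986 with the block and 0.106 without). The peptide control change came mostly from Y31307, which went from 12.27 at 0 h to 10.99 at 2 h. The other peptide control animals went from 11.76 to 12.14, 11.93 to 11.86 and 12.32 to 12.15. The fits with the animal as a block were not run without Y31307. The change of PLAUR was 3.56 in LR12 animals, against 1.18 in peptide control animals, a difference of 2.38 ± 0.66 (0.0303 with the block, 0.199 without). Of all genes, 1.17% were called in this comparison with the block and 5.3% with each animal given its own level, which called both genes as well (0.00463 and 0.0111). Against the vehicle arm, where the change of PLAUR was 1.64, the difference was 1.92 ± 0.66 (0.0256 with the block and 0.0933 without), beside 10.5% of all genes with the block. With each animal given its own level PLAUR was called again (0.0163, 14.5% of all genes called), and at 8 h THBS1, with a difference of 2.63 (0.0153, 6.14% of all genes called). The 0 h levels of PLAUR enter these differences, and they were 1.02 lower in the LR12 arm than in the peptide control arm.

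The arrays held 25 probe sets of the 8 genes, of which 23 passed the filter on dim probe sets, and these did not always move alike. The second PLAUR probe set followed the chosen one closely (Pearson r = 0.947 over 56 arrays) and its mean 2 h change in the LR12 arm was 3.03, while another had r = 0.362. For THBD the other probe sets had r = 0.888 and 0.746, and for PLAU the other had r = 0.651 and changes of 2.03, 1.60 and 1.21 at 2, 4 and 8 h in the LR12 arm. The other THBS1 probe sets had r between 0.382 and 0.817, those of TFPI between 0.133 and 0.564, and those of F5 of 0.658 and 0.181. These correlations describe shared arrays and carry no test. The human probes read macaque RNA, and mismatches between the species were not measured here.

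**Figure D3:**
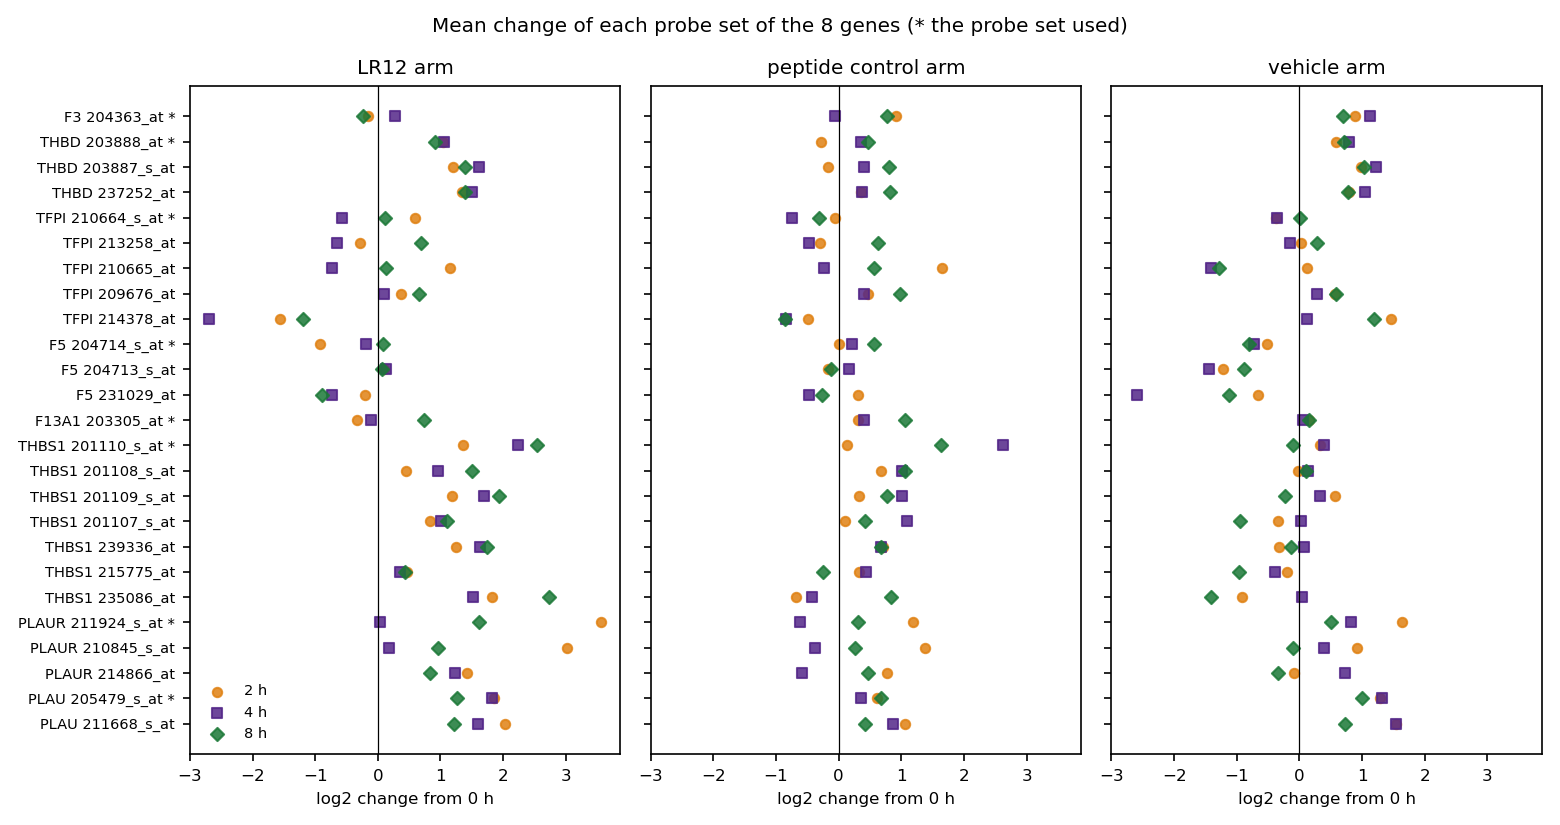
Mean log2 change from 0 h (x axis) of each of the 25 probe sets of the 8 genes (y axis) at 2 h (orange circles), 4 h (purple squares) and 8 h (green diamonds), with the LR12, peptide control and vehicle arms in panels from left to right and an asterisk on the probe set used. The upper 2 PLAUR probe sets lie farthest to the right at 2 h in the LR12 arm (3.56 and 3.03).

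Other genes of the same systems were called in both directions, and their counts are given beside the shares of all genes called, with no test of either list. Of 37 other coagulation genes listed, 29 were tested, and in the LR12 arm 3 rose and 4 fell at 2 h, 4 rose and 4 fell at 4 h, and 2 rose and 0 fell at 8 h, where 32%, 36.8% and 29.1% of all genes were called. PROS1, the gene of the protein C cofactor protein S, rose late, with a mean of 9.71 ± 0.30 at 8 h, against 6.85 ± 0.28 at 0 h in LR12 animals (SD, n = 6), a change of 2.86 ± 0.31 (adjusted p = 1.26e-08). PROS1 also rose at 8 h in the peptide control arm (1.84 ± 0.38, adjusted p = 0.0122). F12, the factor XII gene, rose early, by 2.65 ± 0.49 at 2 h in the LR12 arm (adjusted p = 3.49e-05) and by 2.13 ± 0.60 in the peptide control arm (adjusted p = 0.035). FGL2, a membrane protein with prothrombin-cleaving activity, was lower at 2 h (-0.64, adjusted p = 0.0116) and higher at 4 h (0.93 ± 0.20, adjusted p = 0.000227) in the LR12 arm. VWF, the platelet-binding von Willebrand factor, fell by 2.47 ± 0.56 at 4 h in the LR12 arm (adjusted p = 0.000369). F8 rose by 1.66 ± 0.37 at 2 h (0.000374) and F7 by 0.91 ± 0.21 at 4 h (0.000496). The median changes of the list were -0.33, -0.26 and -0.33, beside -0.18, -0.29 and -0.27 for all genes.

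Of 14 other fibrinolysis genes listed, 12 were tested, and in the LR12 arm 2 rose and 3 fell at 2 h, 2 rose and 4 fell at 4 h, and 3 rose and 1 fell at 8 h. Of all genes 32%, 36.8% and 29.1% were called. The list's median changes were -0.70, -0.44 and 0.18, beside -0.18, -0.29 and -0.27 for all genes. PLGRKT, a plasminogen receptor of the cell surface, rose by 2.27 ± 0.32 at 4 h in the LR12 arm (adjusted p = 3.21e-07) and by 1.52 ± 0.39 in the peptide control arm (0.0223). ANXA2 and S100A10, which together form another plasminogen receptor, fell at 2 h in the LR12 arm, by 1.83 ± 0.30 (adjusted p = 4.91e-06) and by 1.35 ± 0.33 (0.00112). LRP1, an endocytic receptor that takes up proteases, fell to 2.87 ± 1.56 at 2 h, against 6.04 ± 0.44 at 0 h in LR12 animals (SD, n = 6, adjusted p = 2.13e-05). The 20th percentile of these arrays averaged 2.15 at 2 h, so LRP1 was then near the dim end of the array and the size of its fall is uncertain. CD47 rose by 0.84 ± 0.15 at 4 h (2.16e-05) and CD36 by 3.13 ± 0.89 at 8 h (0.00642), and both encode receptors of thrombospondin 1. CD36 also stood among the monocyte markers.

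In the peptide control arm, 1 other coagulation gene rose at 2 h, 1 fell at 4 h and 1 rose at 8 h, and of the other fibrinolysis genes 1 rose at 2 h, 1 at 4 h and none at 8 h. Of all genes, 3.3%, 4.84% and 0.73% were called in that arm at 2, 4 and 8 h. None of either list was called by limma in the vehicle animals at any hour, beside 0%, 0.0125% and 0.0375% of all genes. With the animal as a random block it called 1 fall, of a coagulation gene at 4 h, beside 77 of all 16020 genes.

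Marker genes of several blood cells moved in the same hours as PLAUR, PLAU and THBD, which neutrophils and monocytes express. Of all genes, 32%, 36.8% and 29.1% were called in the LR12 arm at 2, 4 and 8 h. The marker counts that follow were not tested against these shares. Of 16 neutrophil markers, 11 rose in the LR12 arm at each hour, and 0, 1 and 1 fell. Their mean log2 level lay between 9.72 and 10.13 in the LR12 animals at 2 h, against 8.20 to 9.42 at 0 h. In the peptide control arm it lay between 9.30 and 9.89 at 2 h, against 9.01 to 9.36 at 0 h, and in the vehicle arm between 9.30 and 10.01 at 2 h, against 8.20 to 9.48 at 0 h. Of 13 monocyte markers, 4 rose and 5 fell at 2 h in the LR12 arm, 6 rose and 3 fell at 4 h, and 7 rose and 1 fell at 8 h. Their mean level in LR12 animals was lowest at 2 h, between 8.43 and 9.01, the hour at which PLAUR was highest. Of 15 T cell markers 12, 15 and 14 fell in the LR12 arm at 2, 4 and 8 h. Of 9 endothelial markers 1 rose and 0 fell at 2 h, 1 rose and 2 fell at 4 h, and 0 rose and 1 fell at 8 h in that arm. They were above the array median on 8 (KDR) to 56 (TIE1 and ERG) of 56 arrays, and their mean level lay between 4.85 and 5.55 in LR12 animals at 2 h, against 4.29 to 5.12 at 0 h. In peptide control animals it lay between 4.46 and 5.73 at 2 h, against 4.49 to 4.77 at 0 h, and in vehicle animals between 4.55 and 5.67 at 2 h, against 3.94 to 4.64 at 0 h. The part of these shifts in the changes of the 8 genes was not tested.

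Across all 56 arrays the 8 genes did not form 1 group. THBD and PLAU had a Pearson r of 0.593, PLAUR and PLAU of 0.475, F5 and F13A1 of 0.470, and TFPI and F5 of -0.473. The genes whose levels were most like each of them, as a description over arrays that share animals and hours, differed for every gene. PLAUR was most like MAST3 and TSPAN18 (r = 0.802 and 0.780), PLAU like ANXA3 and PPP1R3D (0.828 and 0.816), and THBD like HIPK3 and NCF4 (0.762 and 0.749). TFPI was most like CDC14A and ELK1 (0.718 and 0.689), and THBS1 like RASA2 and ABI1 (0.849 and 0.844). The values were lower for F5 with EMILIN2 and GNL2 (0.597 and 0.571), for F13A1 with CNDP2 and PANX1 (0.561 and 0.533) and for F3 with SMDT1 and STYXL1 (0.453 and 0.445).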

How the data were processed

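Whole blood RNA from PAXgene tubes was amplified and labelled with the NuGEN Ovation Whole Blood kit, per the labels' protocols. The deposited values are linear MAS5 intensities per probe set, per the submitters' processing notes, whose version and settings are not given in the sources used here. Each array's 2% trimmed mean lay between 150.03 and 150.04, the mark of scaling to 1 common mean, which cannot show a global shift in RNA. Array medians lay between 12.9 and 23.5. The number of arrays limits the precision.

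Of 54675 probe sets, 41097 had 1 gene symbol, 1801 several and 11777 none in the platform annotation, which can be old. For each gene the probe set with the highest mean log2 intensity was used, among the 38826 that lay above the array median on at least 4 of 56 arrays. Arms, hours and animals came from the labels. The test was limma (3.58.1, R 4.3.3) on log2 values of all 56 arrays with 12 group means, and eBayes with trend and robust moderation. It was tested on simulated data. P-values are two-sided, moderated and adjusted over 16020 genes within each of 36 comparisons.

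The labels give the same animals at every hour, so arrays are paired by animal. Deviations from the group means correlated at 0.180 on average within an animal (0.103 to 0.328 by animal) and at -0.0294 between animals, and 45 of 56 arrays were most like another array of their own animal. This fit had no block. A random animal block (duplicateCorrelation, correlation 0.221, statmod 1.5.0) was an alternative, with other scalings, filters, probe sets, a value of 16 added before the log, the array control level as a covariate and each animal left out. Low- and high-control arrays alone, split at 9.74, and a fixed animal level were added after seeing the data. No 2 arrays were identical.

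The 9 genes and the lists were chosen with earlier results of these data known. All 8 genes with a probe set are described. Of each list of other coagulation and fibrinolysis genes the 6 with the smallest adjusted p in the LR12 arm are named, and for likeness the 2 genes with the highest Pearson r. F2RL1 had no probe set of its own symbol, and PROCR, F9, FGB, SERPIND1, SERPINA10, F13B, HRG and CPB2 were too dim to be tested. The platelet, monocyte, neutrophil, T cell and endothelial marker lists are described with the results. For LR12 animals at 2, 4 and 8 h, 0, 0 and 0 of 9 B cell markers rose and 7, 5 and 4 fell. Of 8 erythroid markers, 1, 0 and 0 rose and 0, 0 and 5 fell. Of 14 early response genes, 12, 9 and 2 rose and 1, 2 and 1 fell. These 14 were NFKBIA, NFKBIZ, TNFAIP3, IL1B, ICAM1, CCL2, IER3, RELB, EGR1, FOS, JUNB, NR4A3, KLF2 and PTGS2. Of all genes, 32%, 36.8% and 29.1% were called in that arm at these hours.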

Additional observations from a re-analysis of the deposited data

Results flagged for a closer look

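Among 96 groups of a gene, an arm and an hour, 2 held a sample far from the others. Chance gives about 1 in 20 such groups, so 2 of 96 is no more than chance would give. F13A1 in vehicle animal Y31304 was 4.74 at 8 h, with the other vehicle animals between 7.72 and 8.17. THBS1 in LR12 animal Y31310 was 7.34 at 0 h, with the other LR12 animals between 5.74 and 5.98. That array was the only high-control one of the 6 LR12 arrays at 0 h, and THBS1 followed the control level. The part of that level in this value was not tested.

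The change from 0 h was called as different between arms for 3 genes, by tests in which the animal was a block. The fit without a block called 0 of the 8 genes in these comparisons. At 2 h the change of THBD was higher by 1.32 in the LR12 than in the peptide control arm (adjusted p = 0.00986 with the random block, 0.106 without). That of PLAUR was higher by 2.38 (0.0303 and 0.199). In this comparison 1.17% of all genes were called with the random block and 0% without. The THBD change in the peptide control arm came mostly from Y31307, which went from 12.27 at 0 h to 10.99 at 2 h. The 2 h change of PLAUR was higher by 1.92 in the LR12 than in the vehicle arm (0.0256 with the random block, 0.0933 without). Here 10.5% of all genes were called with the random block and 2.17% without. The 8 h change of THBS1 was higher by 2.63 in the LR12 than in the vehicle arm with each animal given its own level (0.0153, 6.14% of all genes called). That fit was added after seeing the data. The difference was not called with the random block (0.0547) or without a block (0.252).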

How the results depend on the processing

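Over 288 pairs of a gene and a comparison, the fit without a block made 19 calls and no alternative reversed one. The random animal block lost 0 and gained 6 calls, and each animal's own level, a fixed replicate block that covers 192 pairs, lost 0 of 16 and gained 12. Centring lost 3, the second probe set 6 and high-control arrays alone 14 of 18, with fewer arrays in the fit. Calls summed over the hours moved as follows. Calls against 0 h in the LR12 arm numbered 10, and 10 whichever LR12 animal was left out. Without peptide control animal Y31305, THBS1 at 2 h in the LR12 arm was called too (adjusted p = 0.0352), since all arms share the spread. In the peptide control arm 1 call against 0 h became 0 with only the arms compared, 2 with the control covariate, 0 with the second probe set, 3 with the fixed block and 0 to 2 with animals left out. The 2 calls between hours there became 0 with only the arms compared, 1 with the covariate, 1 with the second probe set and 0 to 2 with animals left out. In the vehicle arm 0 became 1 with the fixed block. For LR12 against peptide control, 1 became 2 with the covariate, 0 with the second probe set and 0 to 2 with animals left out. For LR12 against vehicle, 2 became 1 with centring, with the added value, without the filter and without trend and robust moderation (THBS1 at 8 h lost each time), 4 with the second probe set and 1 to 2 with animals left out. For peptide control against vehicle, 0 became 1 with the random block, 2 with the covariate and 0 to 3 with animals left out. For the changes from 0 h, 0 became 2 with either block and 0 to 1 with animals left out for LR12 against peptide control, and 1 with the random block, 1 with the second probe set and 2 with the fixed block for LR12 against vehicle. Steps in the LR12 arm gave 2 to 3 calls with animals left out. The causes were not tested. Over all genes, calls in the peptide control arm at 2, 4 and 8 h numbered 528, 776 and 117, against 1223, 2449 and 688 with the random block, 1545, 3005 and 1000 with the fixed block, and 1089, 1733 and 822 with the covariate. At 8 h they numbered 230 with quantile normalization, 182 with centring and 19 with only the arms compared, and with the second probe set 309 and 514 at 2 and 4 h. For vehicle animals 0, 2 and 6 became 12, 77 and 23 with the random block and 61, 178 and 22 with the fixed block. F3 lay near the dim end of the arrays, which limits what its probe set could show.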
